A study of Homo sapiens with 8 samples.

Results

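The nuclear pore complex genes described here are 31 nucleoporin genes, taken from a list of symbols and found by that list among the 60664 gene identifiers that each of 2 count tables holds. All 31 were present in both tables. The counts come from selective ribosome profiling of U2OS cells, a human osteosarcoma line, in which total ribosome-protected fragments (the input) were sequenced beside the fragments recovered with a HaloTag-carrying chaperone (the pulldown). In the line with genotype CCT4-Halo the tag sits in a loop of CCT4, a subunit of the chaperonin TRiC, and in the line with genotype PFDN4-Halo it sits on a subunit of the co-chaperone prefoldin (PFD). Each line was isolated as a single clone, so a difference between the lines is also a difference between clones. Each of the 4 groups, input and pulldown of either line, had 2 biological replicates, and all 8 libraries came from cells that received 100 µg/mL cycloheximide for 1 min and were then crosslinked with 2 mM DSP for 30 min. A pulldown from untagged cells was not analysed here.

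The nuclear pore complex is the channel through the nuclear envelope. Its scaffold is built from outer (Y-shaped) and inner rings made of β-propeller and helical-solenoid nucleoporins, while nucleoporins rich in phenylalanine-glycine (FG) repeats and coiled coils fill the channel and form the cytoplasmic filaments and the nuclear basket, and a few transmembrane nucleoporins anchor the assembly. TRiC is best known for folding actin, tubulin and proteins with WD-repeat propellers, and prefoldin hands unfolded chains to it. The question that the list puts to these data is therefore whether ribosomes translating propeller nucleoporins are recovered with either chaperone to a different degree than those translating FG-repeat and coiled-coil nucleoporins. The 31 genes comprise 10 propeller members (NUP37, NUP43, SEH1L, SEC13, NUP133, NUP160, AHCTF1, NUP155, RAE1 and AAAS), 11 FG-repeat or coiled-coil members (NUP62, NUP54, NUP58, NUP98, NUP42, RANBP2, NUP153, NUP50, TPR, POM121 and POM121C), 5 helical scaffold members (NUP107, NUP85, NUP93, NUP188 and NUP205), 2 with both a propeller and an FG or coiled-coil part (NUP214 and NUP88), and 3 others (NUP35, NDC1 and NUP210).

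A sequence property of the FG class is visible in its coding sequence. The first 60 codons of NUP62, the FG nucleoporin of the central channel (hg38, chr19:49909628-49909807, minus strand, within its 1 coding exon), hold 3 FG pairs, whose codons are in capitals.
NUP62: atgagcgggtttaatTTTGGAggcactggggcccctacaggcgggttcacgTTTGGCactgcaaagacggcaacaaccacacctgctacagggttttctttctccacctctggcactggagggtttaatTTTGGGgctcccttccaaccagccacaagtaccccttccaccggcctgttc
Over whole coding sequences the number of FG pairs was 44 in NUP214, 40 in NUP98, 29 in NUP153, 24 each in POM121 and POM121C, 22 in RANBP2, 14 in NUP58, 12 in NUP42, 9 in NUP54, 6 in NUP62, 5 in NUP50 and 3 in TPR, the coiled-coil scaffold of the basket. The 10 propeller members held 0 to 3 FG pairs each, while NDC1 and NUP210 held 5 and the helical members NUP107, NUP188 and NUP205 held 4, so the count alone does not separate the FG class from the rest.

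A second property bears on every count below. The reads were kept only where they aligned to 1 place in the genome, and some nucleoporin genes have near-identical copies. For 21 members no 30-base coding window occurred elsewhere in hg38, and for 5 more (NUP35, SEC13, NUP43, NUP210 and SEH1L) the share of windows found elsewhere was 8.28% or less. The other 5 members had large shares, with 78.7% for NUP50, 75.4% for POM121C, 74.6% for AHCTF1, 68.0% for POM121 and 41.4% for RANBP2. The following pairs of stretches show how close the copies are. Each pair differs at the 1 base in capitals.
RANBP2 (hg38, chr2:108735532-108735651, plus strand, codons 136 to 175): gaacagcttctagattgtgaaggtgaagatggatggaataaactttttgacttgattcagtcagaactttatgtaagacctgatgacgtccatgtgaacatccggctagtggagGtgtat
RGPD4, the same stretch: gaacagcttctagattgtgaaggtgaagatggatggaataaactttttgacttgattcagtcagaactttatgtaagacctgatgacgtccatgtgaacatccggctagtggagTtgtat
AHCTF1 (hg38, chr1:246918251-246918370, minus strand, codons 1 to 40): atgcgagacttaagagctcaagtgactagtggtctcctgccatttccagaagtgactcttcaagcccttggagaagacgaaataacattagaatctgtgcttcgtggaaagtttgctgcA
AHCTF1P1, the same stretch: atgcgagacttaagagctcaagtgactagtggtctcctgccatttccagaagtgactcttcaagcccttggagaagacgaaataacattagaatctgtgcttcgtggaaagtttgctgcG
POM121 (hg38, chr7:72929941-72930060, plus strand, codons 369 to 408): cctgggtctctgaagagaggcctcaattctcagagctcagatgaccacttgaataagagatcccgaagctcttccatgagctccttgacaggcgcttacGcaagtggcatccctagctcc
POM121C, the same stretch: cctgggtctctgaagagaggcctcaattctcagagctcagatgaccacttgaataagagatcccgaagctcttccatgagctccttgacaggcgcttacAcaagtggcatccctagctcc
Few reads were assigned to the copies that are not members. The RGPD genes, which descend from RANBP2, held at most 13 counts in any library against 4133 or more for RANBP2. The processed pseudogene AHCTF1P1 held 1 to 82 counts, POM121B at most 8, the POM121-related gene POMZP3 at most 46, and the most counted processed pseudogene of NUP50 at most 71. POM121 and POM121C cannot be separated over most of their length, so their values rest on the stretches in which they differ. Reads over exons of another gene are another source of loss, since the gene counter assigns no read that lies in 2 genes, and overlap on the opposite strand matters where strand is ignored, which is not known here. A second annotated gene on the same strand covered 19.6% of the coding bases of NUP62 and 5.41% of those of NUP188, and genes on the opposite strand covered 44.6% of those of NUP42.

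The libraries held 9523128 to 32637658 counts, 98.2% to 98.9% of them in protein-coding genes, and the nucleoporin genes took 0.435% to 0.549% of each. A single member had 182 to 16783 counts in a library, and pooled inputs gave a median over members of 7.58 reads per codon in the TRiC line and 4.88 in the PFD line. Replicates agreed less well in the PFD pulldown (Pearson correlation of log2 CPM across genes 0.893) than in the PFD input (0.961), the TRiC input (0.994) and the TRiC pulldown (0.991). The common dispersion was 0.0153 over the TRiC libraries and 0.331 over the PFD libraries, so differences of the size found among nucleoporins could be called in the former and seldom in the latter. Mitochondrially encoded genes took 0.556% to 0.729% of the inputs and 0.0937% to 0.166% of the pulldowns. Of the markers of a mesenchymal or bone tumour cell, COL1A1, VIM, SPARC, FN1 and RUNX2 had 613 counts or more in every library while COL1A2 had 1 to 66. Of markers of other cell types, PTPRC, ALB, HBB and CD3E had at most 6 counts, CDH1 at most 21 and EPCAM 1 to 277.

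In the TRiC pulldown the nucleoporins as a set stood close to their input, with a few propeller, helical and FG members lower and 2 large members higher. The median log2 fold change (pulldown over input) over the 31 members was -0.01, against -0.00 over all 17934 genes tested and -0.09 over the 7567 protein-coding genes tested with a mean count at least that of the lowest member. Of the 31 members, 2 rose (6.45%, against 8.64% of all genes) and 5 fell (16.1%, against 10.6%), with edgeR's quasi-likelihood test and an adjusted p under 0.05. An unadjusted p under 0.05 was found for 9 of the 31 members, against 5821 of all 17934 genes and 3427 of those 7567 genes. Among those 7567 genes, 9.20% were called higher and 20.5% lower. No called change among members exceeded 1.5-fold. Both TRiC pulldowns lay above both TRiC inputs for 7 members (29.3% of all genes did so) and below both for 10 (31.2% of all genes), and the groups overlapped for the other 14. Without TMM factors, 3 rather than 5 members were called lower, and 58.7% rather than 45.0% of all calls were higher.

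The propeller class had the lower median of both main classes. Of the 10 propeller members 3 lay above 0 and 7 below, with a median of -0.08, and 1 rose while 3 fell. Of the 11 FG-repeat and coiled-coil members 7 lay above 0 and 4 below, with a median of 0.08, and 1 rose and 1 fell. Of the 7567 protein-coding genes tested with a mean count at least that of the lowest member, 62.5% lay below 0. Their median was -0.09, close to that of the propeller members, with 9.20% called higher and 20.5% lower. All 5 helical scaffold members lay below 0 (median -0.06, 1 fell), although NUP205 turned positive with library totals, loess, a stricter filter or without TRiC input replicate 2, and the 3 others lay above (median 0.06, none called). The separation between the main classes is small beside the spread of single genes, since each class held members from about -0.36 or lower to 0.30 or higher, and the propeller median became 0.01 when the libraries were scaled by cyclic loess. Computed from the replicates one at a time, the propeller median was -0.09 and -0.07 and the FG and coiled-coil median 0.03 and 0.03.

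**Figure D1:**
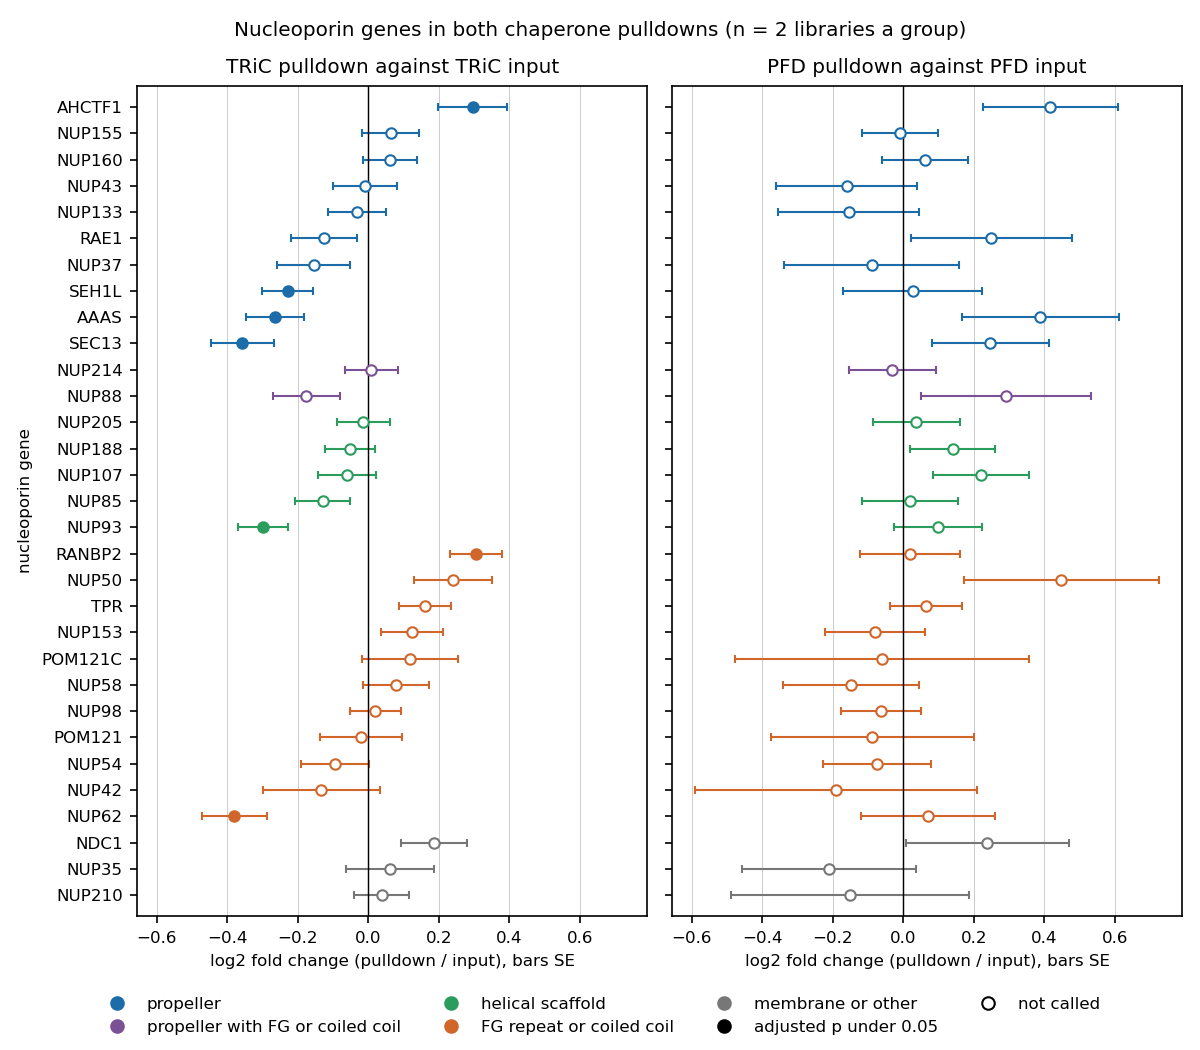
Log2 fold change of pulldown over input for the 31 nucleoporin genes in the TRiC (left) and PFD (right) line, with bars for the SE, colours for the structural class and filled points for an adjusted p under 0.05 (2 libraries a group). In the TRiC line 7 points are filled, 5 of them left of 0, while in the PFD line none is filled and the bars are wider.

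SEC13 (hg38, chr3:10293131-10321112, minus strand), an open propeller of the Y complex that also serves in the COPII vesicle coat, had the lowest value of the propeller class. Its TRiC inputs stood at 152 and 148 CPM (counts scaled to library size with TMM factors within a line) and its TRiC pulldowns at 127 and 107 CPM. Both pulldowns were below both inputs, and the log2 fold change was -0.36 ± 0.09 (SE, n = 2 against 2; edgeR adjusted p = 0.00939). SEH1L (chr18:12947133-12987536, plus strand), the other open propeller of the Y complex and a member of the GATOR2 complex of nutrient signalling, stood at 258 and 272 CPM in the inputs and 226 and 227 CPM in the pulldowns. It fell by 0.23 ± 0.07 on the log2 scale (edgeR adjusted p = 0.0347), with groups that did not overlap. AAAS (chr12:53307456-53324864, minus strand), or aladin, the WD-repeat protein mutated in triple-A syndrome, stood at 193 and 190 CPM in the inputs and 170 and 148 CPM in the pulldowns. This was a log2 fold change of -0.27 ± 0.08 (edgeR adjusted p = 0.0309), again without overlap.

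The remaining members whose whole chain is a propeller had values on the same side without passing the test. They were NUP37 (-0.16), RAE1, an mRNA export factor bound to NUP98 (-0.13), and NUP43 (-0.01), the last within the 0.04 at which scaling by library totals put the median of all genes. All 6 members in which the propeller makes up the whole protein lay below 0, with a median of -0.19. This division was made after the values were seen. Most short genes lay below 0 as well. Of all protein-coding genes with a coding length of up to 1500 bases, 66.4% did, with a median of -0.14. Of the 6 members, only AAAS is longer than that. Of protein-coding genes with a mean count at least that of the lowest member, 62.5% lay below 0. The 4 members that carry a propeller in front of a long helical domain had a median of 0.06. NUP155 (0.06), NUP160 (0.06) and NUP133 (-0.03) did not pass the test.

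AHCTF1 (chr1:246839098-246931948, minus strand), also called ELYS, which binds chromatin and seeds pore assembly after mitosis, was the 1 propeller member that rose. Its TRiC inputs stood at 45.7 and 47.2 CPM and its TRiC pulldowns at 59.0 and 54.9 CPM. The groups did not overlap, and the log2 fold change was 0.30 ± 0.10 (edgeR adjusted p = 0.0417, the closest to the threshold of the 7 calls). RANBP2 (chr2:108719482-108785810, plus strand), the giant cytoplasmic-filament nucleoporin with Ran-binding domains and SUMO ligase activity, was the other member that rose. It stood at 282 and 296 CPM in the inputs and 341 and 373 CPM in the pulldowns (log2 fold change 0.31 ± 0.07, edgeR adjusted p = 0.00737), without overlap. Both genes are among the 5 with over 40% repeated windows.

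NUP62 (chr19:49906825-49929764, minus strand), shown above, had the lowest value of all members. It stood at 106 and 118 CPM in the TRiC inputs and at 91.3 and 81.3 CPM after pulldown, which is a log2 change of -0.38 ± 0.09 (edgeR adjusted p = 0.00754). Its partners in the central channel were near their inputs, with log2 fold changes of -0.09 for NUP54 and 0.08 for NUP58, neither called. NUP93 (chr16:56730118-56850286, plus strand), a helical protein that links the inner ring to the central channel, stood at 277 and 271 CPM in the inputs and 220 and 226 CPM in the pulldowns. Its log2 fold change was -0.30 ± 0.07 (edgeR adjusted p = 0.00755), and the groups of NUP62 and of NUP93 did not overlap. The large inner-ring solenoid NUP205 had the value nearest 0 in the helical class, with 199 and 215 CPM in the inputs, 202 and 208 CPM in the pulldowns and a log2 fold change of -0.01 ± 0.08 (edgeR adjusted p = 0.926) and overlapping groups. NUP188 (-0.05), NUP107 (-0.06) and NUP85 (-0.13) did not pass the test either.

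**Figure D2:**
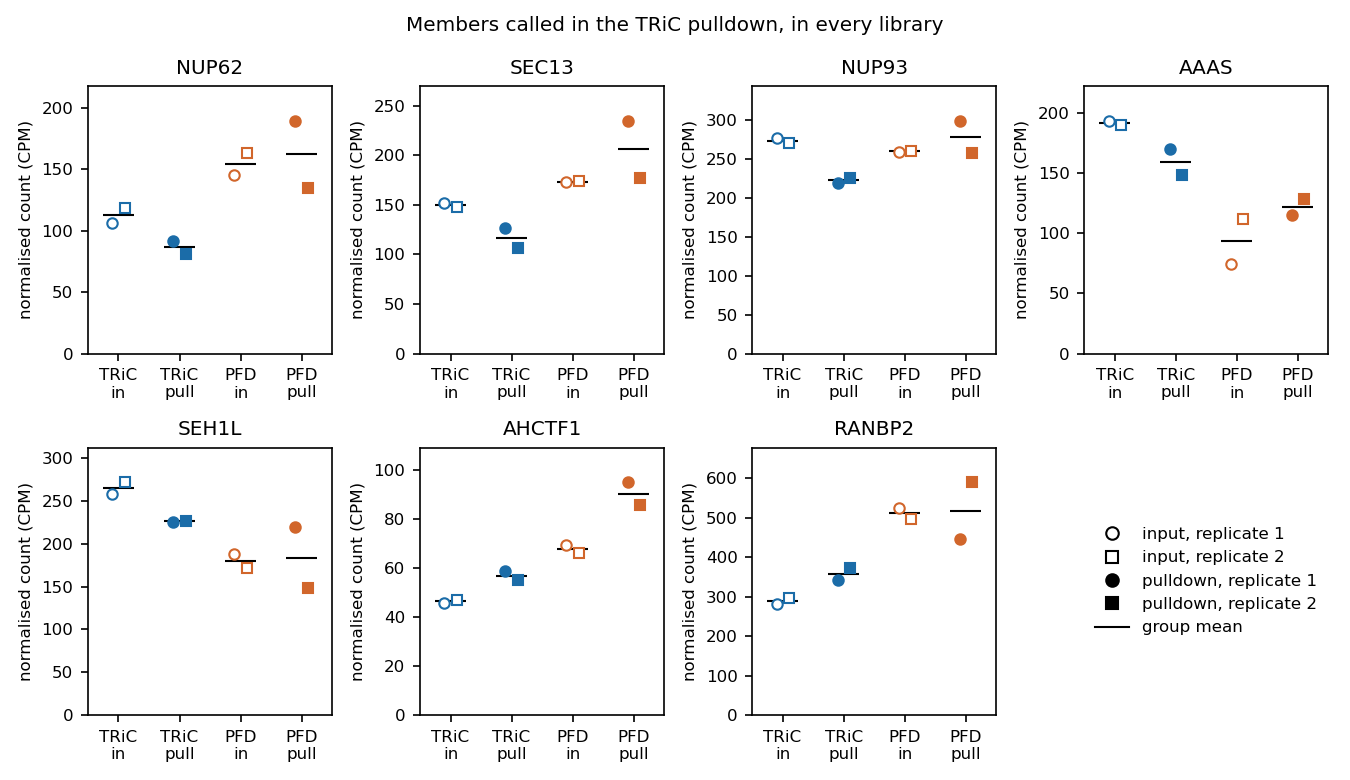
Normalised counts (CPM, linear axis from 0) of the 7 members called in the TRiC pulldown, in all 8 libraries, with a line for each group mean; CPM were scaled within each line. The TRiC pulldowns lie below the TRiC inputs in 5 panels and above them in 2, and the PFD pulldown replicates lie far apart in several panels.

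The 2 members that combine a propeller with FG repeats or a coiled coil belong to the NUP214 complex on the cytoplasmic side, where mRNA export ends. NUP214 stood at 220 and 238 CPM in the TRiC inputs and 228 and 233 CPM in the pulldowns (log2 fold change 0.01 ± 0.07, edgeR adjusted p = 0.956). NUP88 stood at 71.5 and 80.0 CPM in the inputs and 64.5 and 69.8 CPM in the pulldowns, -0.18 ± 0.10 on the log2 scale (edgeR adjusted p = 0.215). Genes on the opposite strand cover 35.5% of its exon bases but 3.19% of its coding bases. The groups overlapped for NUP214, while for NUP88 both pulldowns were below both inputs.

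The nuclear basket members, the importin-binding NUP50 (0.24), TPR (0.16) and NUP153 (0.12), all lay above 0 with pulldowns above both inputs, and none passed the adjusted threshold (edgeR adjusted p = 0.138, 0.141 and 0.355). TPR was called higher with a replicate block and with cyclic loess. The remaining FG members POM121C (0.12), NUP98 (0.02), POM121 (-0.02) and NUP42 (-0.13) were not called. The NUP98 gene also encodes the Y-complex scaffold NUP96 in the same reading frame, so its count mixes both classes.

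The membrane anchors showed no called change. NDC1, which has several membrane spans and recruits AAAS, stood at 88.6 and 87.5 CPM in the inputs and 92.0 and 109 CPM in the pulldowns (log2 fold change 0.19 ± 0.09, edgeR adjusted p = 0.175). NUP210, a glycoprotein with a large lumenal domain, stood at 154 and 151 CPM in the inputs and 160 and 153 CPM in the pulldowns (0.04 ± 0.08, edgeR adjusted p = 0.785). Both pulldowns lay above both inputs for NDC1, and the groups overlapped for NUP210. For NUP35, an inner-ring protein that binds membrane, the log2 fold change was 0.06.

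The 7 calls rest on few libraries. Leaving out either TRiC input left that group with 1 library, and most of the 7 lost their call. Calls over all genes fell in those fits as well. Without TRiC pulldown replicate 1 AHCTF1 lost its call while TPR and NDC1 gained one, and without TRiC pulldown replicate 2 SEC13 and AAAS lost theirs. With all 8 libraries in a single fit, whose dispersion of 0.223 includes the PFD libraries, none was called. That fit called 16 of all 18855 genes higher and 15 lower.

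Coding length moved with the fold change in the TRiC pulldown, among members as among all genes. Protein-coding genes with a coding length of up to 1500 bases had a median log2 fold change of -0.14, and 18.3% of them were called lower. Those of over 1500 and up to 3000 bases had a median of 0.03, and those over 3000 bases a median of 0.18, with 23.8% called higher. The 8 members of up to 1500 bases had a median of -0.13, the 10 of middle length -0.11, and the 13 over 3000 bases 0.04. Across the 31 members, which share libraries, the correlation of log2 fold change with the number of codons was 0.58 (Pearson) and 0.53 (Spearman), given as a description. The whole-protein propellers are at most 1638 bases long and both members that rose at least 6798. The other propeller members run from 3468 (NUP133) to 6798 bases (AHCTF1), and the FG and coiled-coil members from 1269 (NUP42) to 9672 (RANBP2). Length thus goes with the whole-protein subgroup rather than with the propeller class as a whole.

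Set against the median of their own length class, 21 of the 31 members lay below and 10 above, with a median difference of -0.11. All 5 helical members lay below (median -0.19), as did 7 of the 10 propeller members (median -0.10) and 6 of the 11 FG and coiled-coil members (median -0.02). Among the 13 members over 3000 bases 11 lay below their class median, the exceptions being AHCTF1 and RANBP2, at 0.12 and 0.13 above it. Of the 6 whole-protein propellers, all below 0 before this step, 4 lay below their class medians and 2 above, with a median difference of -0.05 in place of -0.19. Among them AAAS (-0.30), SEC13 (-0.22) and SEH1L (-0.09) lay furthest below their class medians, while NUP43 lay 0.13 above. These differences are descriptions without a test. The class medians cover all protein-coding genes tested, also those with lower counts than the members. Over all lengths the median was -0.03 for all protein-coding genes and -0.09 for those with a mean count at least that of the lowest member.

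Repeated sequence moved with the fold change as well. The 5 members with over 40% repeated windows had a median log2 fold change of 0.24 in the TRiC pulldown, with 4 above 0, and they include both members that rose. The other 26 members had a median of -0.04, with 10 above 0 and 16 below, and include all 5 that fell and none that rose. The part of either property in the calls was not tested.

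**Figure D3:**
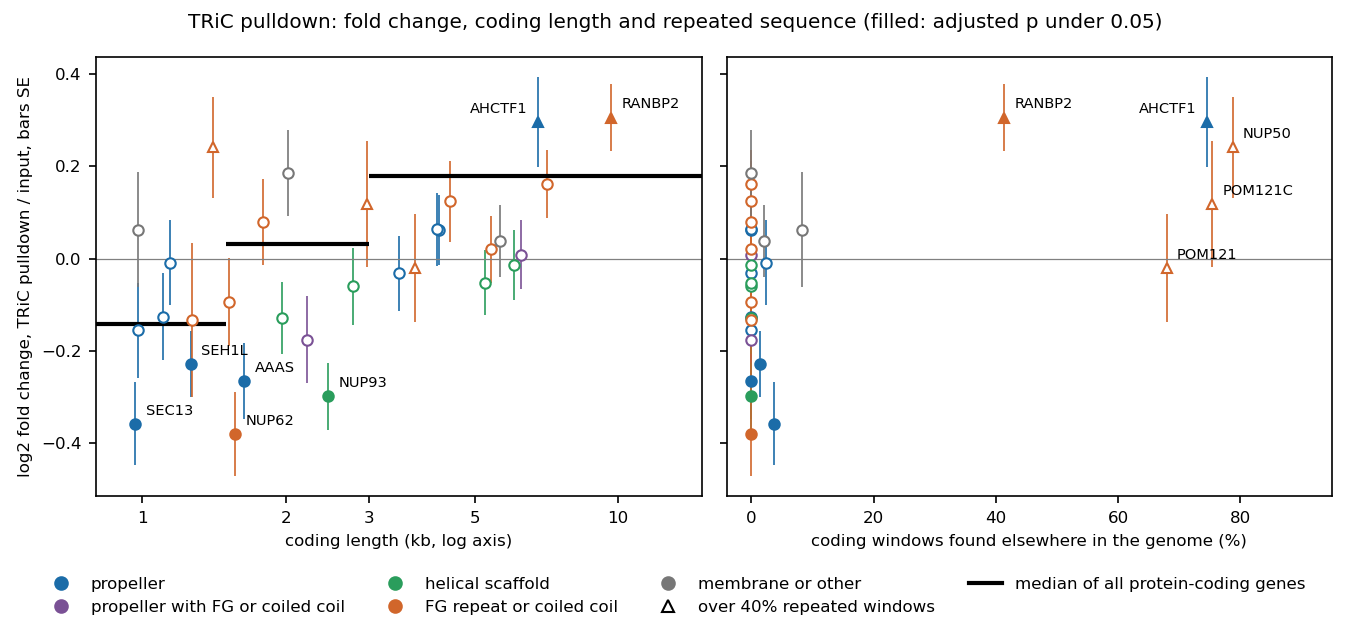
Log2 fold change of each member in the TRiC pulldown (bars SE) against its coding length in kb (left, log axis) and against the percentage of its 30-base coding windows found elsewhere in the genome (right); triangles mark members with over 40% such windows and black lines the median of all protein-coding genes in 3 length classes. Short members lie mostly below 0, most members over 3 kb lie under the line at 0.18, and 4 of the 5 triangles lie above 0.

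In the PFD pulldown no nucleoporin was called. Of 14111 genes tested, 0.0496% were called higher and 0.191% lower, so a count of 0 among 31 members carries little information. By edgeR 0 members had an unadjusted p under 0.05, against 978 of the 14111 genes, and DESeq2 called 0 members as well. The median log2 fold change over members was 0.02, against -0.00 over all genes, and the 95% intervals of all 31 members held 0, and their limits lay at a median of 0.446 from the estimate, against 0.185 in the TRiC line. The propeller median was 0.04, the FG and coiled-coil median -0.06, and the helical median 0.10. Both PFD pulldowns lay above both inputs for 5 members (18.3% of all genes did so) and below for 2 (20.4%).

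The highest values belonged to NUP50, AHCTF1 and AAAS. NUP50 stood at 41.3 and 34.2 CPM in the PFD inputs and 44.8 and 58.1 CPM in the PFD pulldowns (log2 fold change 0.45, 95% interval -0.19 to 1.09). AHCTF1 stood at 69.3 and 66.0 CPM in the inputs and 94.98 and 85.9 CPM in the pulldowns (0.42, interval -0.03 to 0.86), and AAAS at 74.7 and 112 CPM against 115 and 128 CPM (0.39, interval -0.13 to 0.91). The inputs and pulldowns of these 3 genes did not overlap. The other 2 members with both pulldowns above both inputs were SEC13 and NUP107.

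SEC13 stood at 172 and 174 CPM in the PFD inputs and at 235 and 177 CPM in the pulldowns (0.25, interval -0.14 to 0.63), and NUP88 at 134 and 111 CPM against 186 and 114 CPM (0.29, interval -0.27 to 0.85). NDC1 stood at 110 and 113 CPM in the inputs and 163 and 101 CPM in the pulldowns (0.24, interval -0.30 to 0.78). In all 3 genes pulldown replicate 1 was high and replicate 2 close to the inputs or below them. Without PFD pulldown replicate 2 their log2 fold changes were 0.43, 0.60 and 0.54. That fit leaves 1 library in the PFD pulldown, and calls over all genes rose in it as well.

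For SEH1L, NUP62 and RANBP2, as for NDC1, the PFD pulldown replicates lay on opposite sides of the inputs. SEH1L stood at 188 and 172 CPM in the PFD inputs against 219 and 148 CPM in the pulldowns (0.03, interval -0.43 to 0.49), and NUP62 at 145 and 163 CPM against 189 and 135 CPM (0.07, interval -0.37 to 0.51). RANBP2 went the other way, from 524 and 497 CPM to 446 and 589 CPM (0.02, interval -0.31 to 0.35). The ratios of same-numbered libraries differed in sign between both replicates for 15 of the 31 members in the PFD line and for 7 in the TRiC line.

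NUP93, NUP205 and NUP214 had narrower intervals. NUP93 stood at 260 and 260 CPM in the PFD inputs and 299 and 258 CPM in the pulldowns (0.10, interval -0.19 to 0.39), NUP205 at 271 and 263 CPM against 293 and 255.3 CPM (0.04, interval -0.25 to 0.32), and NUP214 at 249 and 286 CPM against 262 and 262 CPM (-0.03, interval -0.32 to 0.26). NUP210 was low in both first replicates, with 53.9 and 82.1 CPM in the inputs and 43.3 and 78.5 CPM in the pulldowns (-0.15, interval -0.93 to 0.63). The lowest value of the set was -0.21, for NUP35, and the correlation with codon number was -0.03 (Pearson) and 0.06 (Spearman).

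Whether the TRiC and PFD enrichments differ was tested as an interaction over all 8 libraries, in which 0.0212% of 18855 genes were called higher in the TRiC line and 0.0159% lower. No nucleoporin was called by edgeR or by DESeq2. Of all 18855 genes, 2791 had an unadjusted edgeR p under 0.05. Of the 7569 protein-coding genes with a mean count at least that of the lowest member, 1301 did. Among nucleoporins the share was smaller than in either set, with 3 members under 0.05. These were NUP93 with a difference of -0.38 (95% interval -0.65 to -0.11, edgeR adjusted p = 0.23), SEC13 with -0.59 (interval -1.02 to -0.15, adjusted p = 0.24) and AAAS with -0.65 (interval -1.23 to -0.07, adjusted p = 0.308). All 3 were lower in the TRiC pulldown and above 0 in the PFD pulldown. RANBP2 had a difference of 0.29 (interval -0.18 to 0.77) and AHCTF1 one of -0.11 (interval -0.51 to 0.30). Leaving out PFD pulldown replicate 2 leaves 1 library in that group, and calls rose over all genes as well as among members. The comparison thus depends on a single library, and the member calls of that fit are not a result about nucleoporins.

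The inputs show how strongly each nucleoporin gene was translated in total. Such counts hold both the amount of mRNA and its translation, and in bulk samples fewer expressing cells and less RNA per cell cannot be told apart. Levels are compared between genes as CPM per kb of coding sequence, scaled over all 8 libraries. They spanned 33.7-fold in the TRiC inputs and 24-fold in the PFD inputs. The highest in the TRiC inputs was SEH1L, with 202 and 213 CPM per kb, followed by SEC13 (155 and 151), AAAS (117 and 115), NUP93 (112 and 109) and RAE1 (96.2 and 103). All but NUP93 are propellers. In 10 of the 30 neighbouring pairs of that order the ranges of the 2 libraries overlapped, so that those neighbours did not differ beyond their spread, and in the PFD inputs 19 of 30 pairs did. The first 6 genes of the TRiC order were each separate from the next.

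By place in the pore, the median was 51.9 CPM per kb for the 9 Y-complex genes, 52.3 for the 5 of the inner ring, 36.2 for the 7 of the cytoplasmic side, 39.9 for the 3 of the central channel, and 17.8 for the 4 of the membrane (TRiC inputs), and the 3 basket genes ran from 22.99 (NUP50) to 62.4 (TPR). Within the Y complex the levels ran from 208 CPM per kb for SEH1L to 6.76 for AHCTF1 (means of 2 libraries), or from 211 to 26.6 when only the single-copy part of each coding sequence was counted as its length. The lowest members were POM121C (6.16), AHCTF1 (6.76), POM121 (8.97), NUP42 (10.9) and NUP50 (22.99), 4 of which have over 40% repeated windows. Divided by the single-copy part of the coding sequence only, the level was 108 CPM per kb for NUP50, 50.4 for RANBP2, 27.98 for POM121, 26.6 for AHCTF1 and 25.0 for POM121C, and the span over all members fell to 19.3-fold, with NUP42 lowest. The order in the PFD inputs was similar (Spearman correlation 0.88 across the 31 genes, a description), with SEC13 highest at 183 and 180 CPM per kb.

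**Figure D4:**
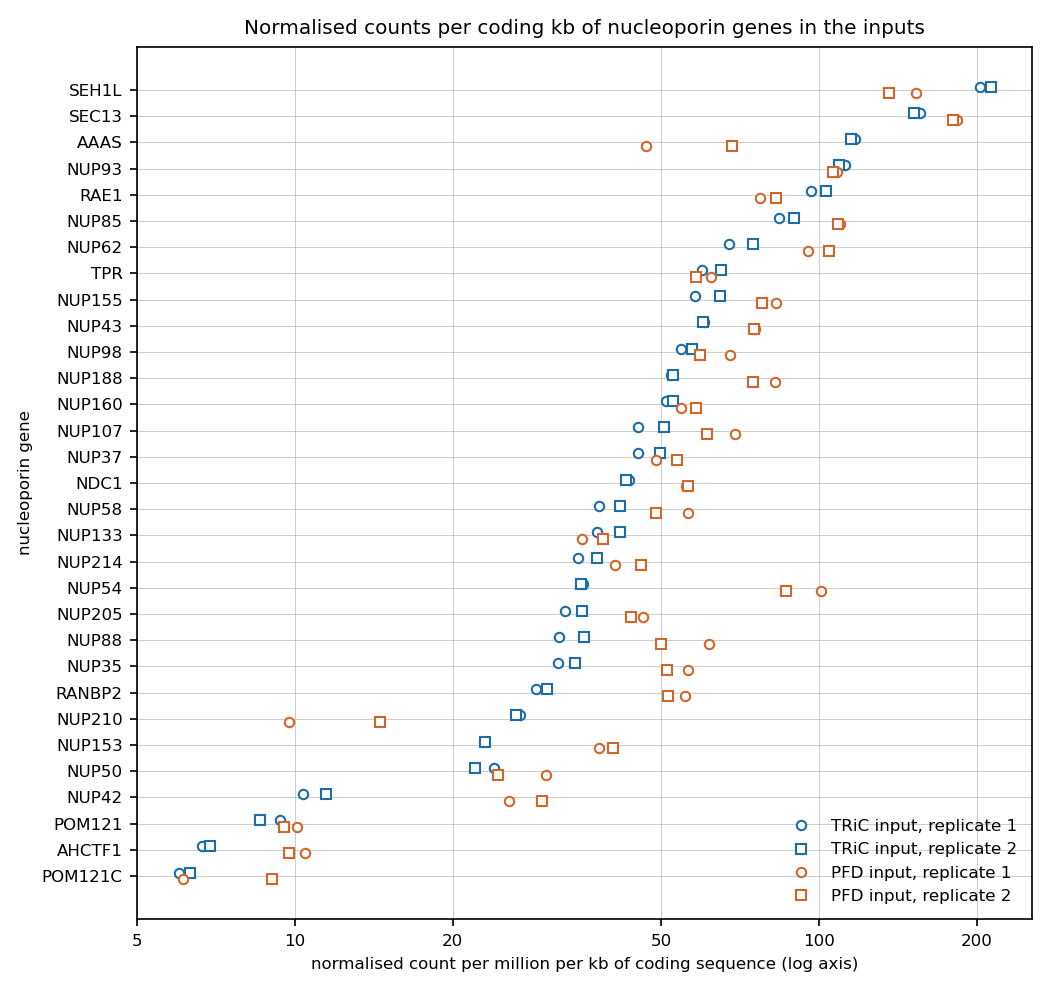
Normalised counts (CPM) per kb of coding sequence (log axis) of the 31 members in each TRiC and PFD input, in the order of the TRiC mean. Most orange points lie to the right of the blue ones, NUP54 and NUP42 furthest, while AAAS and NUP210 lie to the left.

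Between the lines, 11 of the 31 members were higher in the PFD inputs (35.5%, against 9.93% of all 18855 genes tested) and 3 were lower (9.68%, against 10.5%). The median log2 difference (PFD input minus TRiC input) was 0.32 over members and -0.18 over all genes. Among protein-coding genes with a mean count at least that of the lowest member, the median was 0.05, with 21.2% higher and 16.9% lower. Line, clone and library preparation coincide, so none of them can be told apart as the source.

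The largest gains of single members were those of NUP54 and of NUP42 and RANBP2, the latter pair from the cytoplasmic side. By place the median was 0.49 for the central channel, 0.40 for the inner ring and 0.26 for the cytoplasmic side, which also holds AAAS (-1.01). NUP54, of the central channel, stood at 35.5 and 35.1 CPM per kb in the TRiC inputs and at 101 and 86.3 in the PFD inputs, a log2 difference of 1.41 ± 0.12 (edgeR adjusted p = 0.000152). Its partners NUP62 (0.49) and NUP58 (0.40) did not pass the test. NUP42, which binds the export factor GLE1, stood at 10.4 and 11.5 against 25.6 and 29.6 CPM per kb (1.34 ± 0.36, adjusted p = 0.0353), and RANBP2 at 28.9 and 30.3 against 55.5 and 51.5 (0.86 ± 0.15, adjusted p = 0.00478).

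Of the inner ring 4 of 5 members were higher, NUP35 (0.70), NUP188 (0.58), NUP205 (0.40) and NUP155 (0.39), while NUP93 was at -0.04. NUP153 (0.77), NUP88 (0.73), AHCTF1 (0.58) and NUP107 (0.44) complete the 11. The 3 lower members were NUP210, AAAS and SEH1L. NUP210 stood at 26.9 and 26.4 CPM per kb in the TRiC inputs and 9.75 and 14.5 in the PFD inputs (-1.14 ± 0.29, adjusted p = 0.0267), AAAS at 117 and 115 against 46.7 and 68.2 (-1.01 ± 0.18, adjusted p = 0.00566), and SEH1L at 202 and 213 against 153 and 136 (-0.52 ± 0.15, adjusted p = 0.0428). In each of these 3 genes both PFD inputs were below both TRiC inputs. Leaving out any TRiC library or either PFD input lowered the number of calls, and leaving out either PFD pulldown raised it. Both changes were seen over all genes as well as among members. AAAS, NUP188, NUP54 and NUP153 were called each time.

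The soluble factors that pass through the pore were counted beside the nucleoporins. Of 43 listed importins, exportins, Ran-cycle and mRNA export genes, 42 were tested in the TRiC pulldown, where 1 rose (2.38%, against 8.64% of all genes) and 4 fell (9.52%, against 10.6%), with a median of -0.05. All 6 Ran-cycle genes lay below 0 (median -0.24), as did 62.5% of the protein-coding genes with a mean count at least that of the lowest nucleoporin, of which 20.5% were called lower. Of the 6, 2 fell, NUTF2, the import carrier of Ran (-0.68 ± 0.13, edgeR adjusted p = 0.00181), and RANBP1, a co-factor of Ran GTP hydrolysis (-0.35 ± 0.08, adjusted p = 0.00583). Of the 12 mRNA export genes, NXT1, the partner of the export receptor NXF1, fell by 0.68 ± 0.15 on the log2 scale (adjusted p = 0.00477). The adaptor ALYREF stood at 212 and 199 CPM in the inputs against 154 and 143 CPM in the pulldowns (-0.47 ± 0.08, adjusted p = 0.000637).

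The helicase DDX39B was the 1 transport gene that rose, from 20.7 and 21.9 CPM to 37.4 and 44.7 CPM (0.94 ± 0.12, edgeR adjusted p = 6.8e-05). The annotated read-through gene ATP6V1G2-DDX39B spans it on the same strand, so its count is uncertain. In the PFD line it stood at 33.6 ± 7.88 CPM in the inputs and 19.8 ± 2.60 CPM in the pulldowns (mean ± SD, n = 2 each, log2 fold change -0.75, interval -1.58 to 0.07). No transport gene was called in the PFD pulldown. Between the inputs 15 of the 42 transport genes were higher in the PFD line (35.7%, against 9.93% of all genes) and 4 lower (9.52%, against 10.5%), where the protein-coding genes with a mean count at least that of the lowest nucleoporin had 21.2% higher and 16.9% lower.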

How the data were processed

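Libraries of ribosome-protected fragments were made from U2OS cells per the labels, with 2 biological replicates in each of 4 groups. The authors removed PCR duplicates by UMI (UMI-tools), discarded non-coding RNA (Bowtie2 2.4.2), aligned the rest to hg38 with STAR 2.7.10a, keeping reads with a single alignment, and deposited raw counts per gene, in a table for each line. The annotation release and the strand column kept are not given in the sources used here. Of 60664 identifiers, 60463 matched GENCODE release 44, which gave names, positions and coding sequences.

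Pulldown and input were compared with edgeR 4.0.16 in R 4.3.3 (TMM, filterByExpr, quasi-likelihood test, no replicate block, Benjamini-Hochberg over all genes tested, called at an adjusted p under 0.05), within each line on its 4 libraries. The interaction and the comparison of inputs used all 8 libraries. P-values rest on the spread between 2 replicates a group, which the study calls biological, with information on spread shared between genes. For the interaction and the comparison of inputs that spread was estimated over all 8 libraries. The p-values of the input comparison thus also depend on the spread of the pulldowns. Gene totals hold no position along the coding sequence. The fits were tested on simulated data, in which edgeR found most of the changes put in for the TRiC line but few for the PFD line, the interaction or the comparison of inputs, and DESeq2 made many false calls in the last 3.

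Repeated sequence was measured as 30-base coding windows found elsewhere in hg38. The nucleoporin genes, their classes and the other lists were chosen with earlier results of these data known. Values in every library are given for each called member and for the highest and lowest member of each class in the TRiC pulldown; NUP50, NUP54 and NUP42 were added after their values were seen. Of the transport genes, the 3 highest and 3 lowest called with a mean count of at least 100 were named, and RANBP1 was added after its value was seen. The alternatives tried were DESeq2 1.42.0, a replicate block, library totals, cyclic loess with limma 3.58.1, other filters, glmTreat at 1.5-fold, all 8 libraries in 1 fit, removal of genes under opposite-strand exons, and leaving out each library. The opposite-strand removal went by at least 25% of exon bases, so it took out NUP88 and kept NUP42.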

Additional observations from a re-analysis of the deposited data

How the results depend on the processing

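The counts of called nucleoporins in the TRiC pulldown, 2 higher and 5 lower, were 3 and 5 with a replicate block, 1 and 5 with DESeq2 or with no filter, 2 and 3 without TMM factors, 3 and 2 with cyclic loess (TPR being added with the block and with loess), 2 and 5 with at least 10 counts in every library or without genes under opposite-strand exons, and 0 and 0 with all 8 libraries in 1 fit or with glmTreat against 1.5-fold. Leaving out 1 library changed which members were called. Without either TRiC input fewer members were called, and fewer genes over all as well. Without TRiC pulldown replicate 1 the log2 fold change of NDC1 was 0.29. RANBP2, NUP62 and SEC13 kept their calls with the block, DESeq2, library totals, loess and both filters, while AHCTF1 lost its call with DESeq2 (adjusted p = 0.0792) and with no filter (0.0654).

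The propeller median of -0.08 was -0.0328 without TMM factors, 0.00752 with loess, -0.0579 with at least 10 counts, and -0.134 to -0.0161 with 1 library left out. The FG and coiled-coil median of 0.08 was 0.0849 with DESeq2, 0.126 without TMM factors, 0.142 with loess, 0.07 with no filter, 0.101 with at least 10 counts, and 0.037 to 0.115 with 1 library left out. Members near 0 changed sign. In the TRiC pulldown NUP205 became 0.0324 without TMM factors, 0.0953 with loess and 0.007 with at least 10 counts, and NUP214 became -0.00123 with no filter. In the PFD pulldown SEH1L and RANBP2 became -0.00952 and -0.0122 without TMM factors, and RANBP2 -0.025 with loess. With 1 library left out, NUP205 ran from -0.0635 to 0.03, NUP214 from -0.0457 to 0.0572 and NUP210 from -0.00517 to 0.0804 in the TRiC pulldown. In the PFD pulldown these ranges were -0.284 to 0.28 for SEH1L, -0.137 to 0.0581 for NUP214, -0.1 to 0.596 for NUP88, -0.0166 to 0.198 for NUP93, -0.0688 to 0.129 for NUP205, -0.196 to 0.291 for NUP62, -0.202 to 0.202 for RANBP2, -0.141 to 0.539 for NDC1 and -0.65 to 0.209 for NUP210. The causes were not tested.

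In the PFD pulldown 0 members were called under every alternative except without PFD pulldown replicate 2, where calls over all genes rose as well. The interaction gave 0 to 1 higher and 0 to 6 lower with 1 library left out, again only without PFD pulldown replicate 2, and 0 and 0 with a replicate block added after the data were seen. The comparison of inputs, 11 higher and 3 lower, gave 14 and 3 with DESeq2, whose median over all genes was -0.37 rather than -0.18, 11 and 2 without TMM factors, and 3 to 17 higher and 1 to 4 lower with 1 library left out. Inputs and pulldowns were both taken from ribosome pellets, but whether same-numbered libraries share a pellet is not stated, and their deviations correlated little (0.0587 in the TRiC and -0.00887 in the PFD line), so pairing was not assumed. A replicate block raised the calls over all genes from 1550 higher and 1894 lower to 2037 and 2652 in the TRiC line, and from 7 and 27 to 44 and 90 in the PFD line. Over all genes DESeq2 called 211 higher and 223 lower in the PFD line and 562 and 577 in the interaction, and no filter gave 59 and 93 in the PFD line. All 8 libraries in 1 fit gave 16 and 15 in the TRiC line and 27 and 56 in the PFD line, and without PFD pulldown replicate 2 the PFD line gave 1081 and 1353. Fits that leave an arm with 1 library assume that it varies like the others. With 2 replicates a group, and with reads that align to several places left out, small changes of POM121, POM121C, NUP50, AHCTF1 and RANBP2 rest on part of their sequence.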
